A study of Mus musculus with 8 samples.

Results

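The 10 genes described here are the 4 Id genes (Id1, Id2, Id3 and Id4), the ligand gene Bmp4, the inhibitor genes Smad6, Smad7 and Bambi, and the homeobox genes Msx1 and Msx2. They were listed by name, with Ensembl gene identifiers paired to symbols through GENCODE M21, out of 48440 genes in each count file. The list was selected on earlier results from these same libraries, so the values of the 10 genes are given below as a description and without p-values. All 10 passed the filter on low counts and were among the 17049 genes tested.

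Poly(A) RNA was sequenced from mouse embryonic stem (ES) cells that had been differentiated in vitro to day 1, and 2 libraries were made for each of 4 genotypes of Tbxt, the gene of the T-box transcription factor brachyury. Every line was made from MK6 ES cells, which are of the C57BL/6J strain, and all were kept for 2 days without LIF or inhibitors and then exposed to CHIR99021, an inhibitor of GSK3 that activates Wnt signalling, before collection. WT cells were the unedited controls. Tbxt Δexon6/Δexon6 cells lacked exon 6 on both alleles and their 2 libraries came from different clones, and Tbxt Δexon6/+ cells lacked it on 1 allele. Tbxt insASAY/insASAY cells carried the human AluSx1 and AluY elements in introns 5 and 6 of the mouse gene on both alleles. That line was grown from selected single cells. Its editing was done on fibroblast feeders, with puromycin selection, then Cre and ganciclovir. Exon 6 was deleted without feeders and under blasticidin, so this history and the genotype cannot be told apart. The 3 edited genotypes are written Δexon6/Δexon6, Δexon6/+ and insASAY from here on. The study describes its 2 replicates per genotype as biological. Whether those of the other 3 genotypes came from 1 clone or more is not given in the sources used here, and the errors below measure the spread between these libraries.

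Bone morphogenetic proteins (BMPs) bind pairs of serine/threonine kinase receptors, which phosphorylate Smad1, Smad5 and Smad9. These enter the nucleus with Smad4 and switch on target genes, among which the Id genes are the classic immediate targets. Id proteins have a helix-loop-helix domain but no DNA-binding region and hold E proteins away from DNA, and in mouse ES cells grown with LIF and BMP4 they are known to hold back neural differentiation. Smad6, Smad7 and Bambi are switched on by the same signal and dampen it, so that their transcripts, like those of the Id genes, are commonly read as a record of BMP-Smad activity.

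The 4 Id genes are paralogs, and the stretch in which their coding sequences are most alike is shown because it decides whether reads of one could be counted for another. A window of 120 coding bases without a gap was read from GRCm38 with the GENCODE M21 models, each within 1 exon, and capitals mark the 69 bases (57.5%) that are the same in all 4 genes. The window covers the part of the gene known to encode the helix-loop-helix domain. The windows lie at chr2:152736518-152736637 on the plus strand for Id1, chr12:25095783-25095902 on the minus strand for Id2, chr4:136144002-136144121 on the plus strand for Id3 and chr13:48261693-48261812 on the plus strand for Id4.
Id1: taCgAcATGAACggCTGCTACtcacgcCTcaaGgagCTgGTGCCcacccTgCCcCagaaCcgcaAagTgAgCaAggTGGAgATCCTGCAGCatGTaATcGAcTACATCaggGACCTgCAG
Id2: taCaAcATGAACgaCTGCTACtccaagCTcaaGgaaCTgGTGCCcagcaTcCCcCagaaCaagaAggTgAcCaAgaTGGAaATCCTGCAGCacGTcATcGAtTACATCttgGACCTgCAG
Id3: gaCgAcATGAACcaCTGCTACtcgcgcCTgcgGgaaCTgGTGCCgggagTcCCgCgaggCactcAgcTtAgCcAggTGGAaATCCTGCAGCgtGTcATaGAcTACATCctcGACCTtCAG
Id4: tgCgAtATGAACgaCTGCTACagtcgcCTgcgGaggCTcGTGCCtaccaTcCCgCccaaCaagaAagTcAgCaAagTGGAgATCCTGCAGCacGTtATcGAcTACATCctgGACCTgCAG

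Between pairs of genes, 22 to 35 of the 120 bases differed, with the fewest between Id1 and Id2. The Id3 window differed from the others at 34 or 35 bases. Over the whole coding sequences, 67.6% to 72.7% of aligned bases were identical, and the longest run shared exactly by any 2 of the 4 reference transcripts was 19 bases, between Id2 and Id3. No run as long as a read was therefore shared, and the 4 counts are separate measurements.

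Promoter windows from RefSeq (250 bases before to 50 after the gene start, GRCm38.p6) were matched by symbol for 7 of the 10 genes, Bmp4, Id2, Id3, Id4, Msx1, Msx2 and Smad6. They were searched on both strands for letters known from BMP-Smad and T-box elements. GGCGCC, the GC-rich core bound by Smad1 and Smad5, was in the windows of Id2 and Id4, and in 11.9% of 32851 promoters. GTCT, the core bound by Smad4, was in 5 of the 7 and in 88.0% of all promoters. AGGTGTGA, the T-box half-site, was in none of the 7 and in 1.3% of all, and its first letters AGGTGT were in the Id3 window only and in 13.7% of all. In the Id3 window the AGGTGT match overlaps a GTCT match. Short stretches around the Id matches follow, 5′ to 3′ on the gene's strand, with the matched letters in capitals. Positions are counted from the RefSeq gene start. The Id2 stretch (chr12:25096306-25096335, minus strand) begins its match 231 bases before that start. The Id4 stretch (chr13:48260956-48260985, plus strand) begins it 148 bases before, and the Id3 stretch (chr4:136143827-136143856, plus strand) at base 18 of the RefSeq transcript.
Id2 GGCGCC: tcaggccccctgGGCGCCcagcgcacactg
Id4 GGCGCC: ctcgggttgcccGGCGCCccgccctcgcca
Id3 AGGTGT: gtttgctgctttAGGTGTctcttttcctcc

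The Id2 and Id4 stretches lie outside annotated exons, while the Id3 stretch overlaps an annotated exon. The GENCODE M21 models start farther upstream for Id2 (25093799 to 25097140) and Id3 (136143497 to 136145755). The Id2 and Id3 stretches therefore lie within those gene models, not before them. The 7 windows held 60.0% to 73.3% G and C against a median of 52.7% over all promoters. These letter matches are descriptions and were not tied to the counts.

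Each library held between 24618587 and 28445952 reads assigned to genes. All 10 genes lay below the median tested gene, since 54.9% of tested genes were more abundant than Smad7, the highest, and 91.4% more abundant than Bmp4, the lowest, in mean CPM (reads on a gene scaled to library size, with TMM-scaled sizes). The 8 ES cell identity genes listed were detected in every genotype, with a summed level of 1544 to 1582 CPM in the WT libraries. The sums were lower in the mutants, at 1083 to 1235 in Δexon6/Δexon6, 1240 to 1297 in Δexon6/+ and 1258 to 1314 in insASAY libraries. Such sums weigh abundant genes most. The highest gene of the list was Dppa5a in WT, at 544.3 CPM, and Lin28a in each mutant genotype. Calls among the 8 went in both directions in Δexon6/+ cells and are given with the cell state markers below. The 2 Δexon6/Δexon6 libraries stood apart from each other more than other replicates did, with a chi-square per degree of freedom over genes of 11.4 against 2.79 to 3.47 within the other genotypes.

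Tbxt itself, the edited gene, was low in every library. It had 47 and 42 reads in WT, 26 and 22 in Δexon6/Δexon6, 39 and 54 in Δexon6/+ and 30 and 29 in insASAY libraries. The difference from WT was −0.81 ± 0.28 (log2 fold change ± SE, called) in Δexon6/Δexon6, 0.17 (95% interval −0.36 to 0.70) in Δexon6/+ and −0.60 (−1.17 to −0.02) in insASAY cells. The Δexon6/Δexon6 call was lost under DESeq2, in a fit of only the 2 genotypes and when either WT library, the second Δexon6/Δexon6 library or either insASAY library was left out, with values from −1.01 to −0.63. Counts per gene do not show whether exon 6 was present.

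A gene was called at a Benjamini-Hochberg adjusted p under 0.05 over all tested genes together with a log2 difference larger than 0.5 in either direction, by edgeR's quasi-likelihood test. Against WT, 1 of the 10 genes was called higher in Δexon6/Δexon6 cells (Id3; 6.12% of all tested genes were) and 1 lower (Bmp4; 6.59% of all). In Δexon6/+ cells 1 was called higher (Id2; 6.60% of all) and 1 lower (Smad7; 6.89% of all). In insASAY cells 2 were called higher (Id1 and Id3; 11.5% of all) and 1 lower (Smad7; 9.85% of all). The 3 comparisons share the WT libraries. The median log2 fold change of the 10 was −0.25, 0.40 and 0.31 in that order, beside −0.0096, −0.00059 and −0.0051 over all tested genes. The median size of the change was 0.38, 0.46 and 0.46 against 0.23, 0.21 and 0.29. The 10 were selected on these data and all lie below the median tested gene in level. The part of either in these sizes was not tested.

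**Figure D1:**
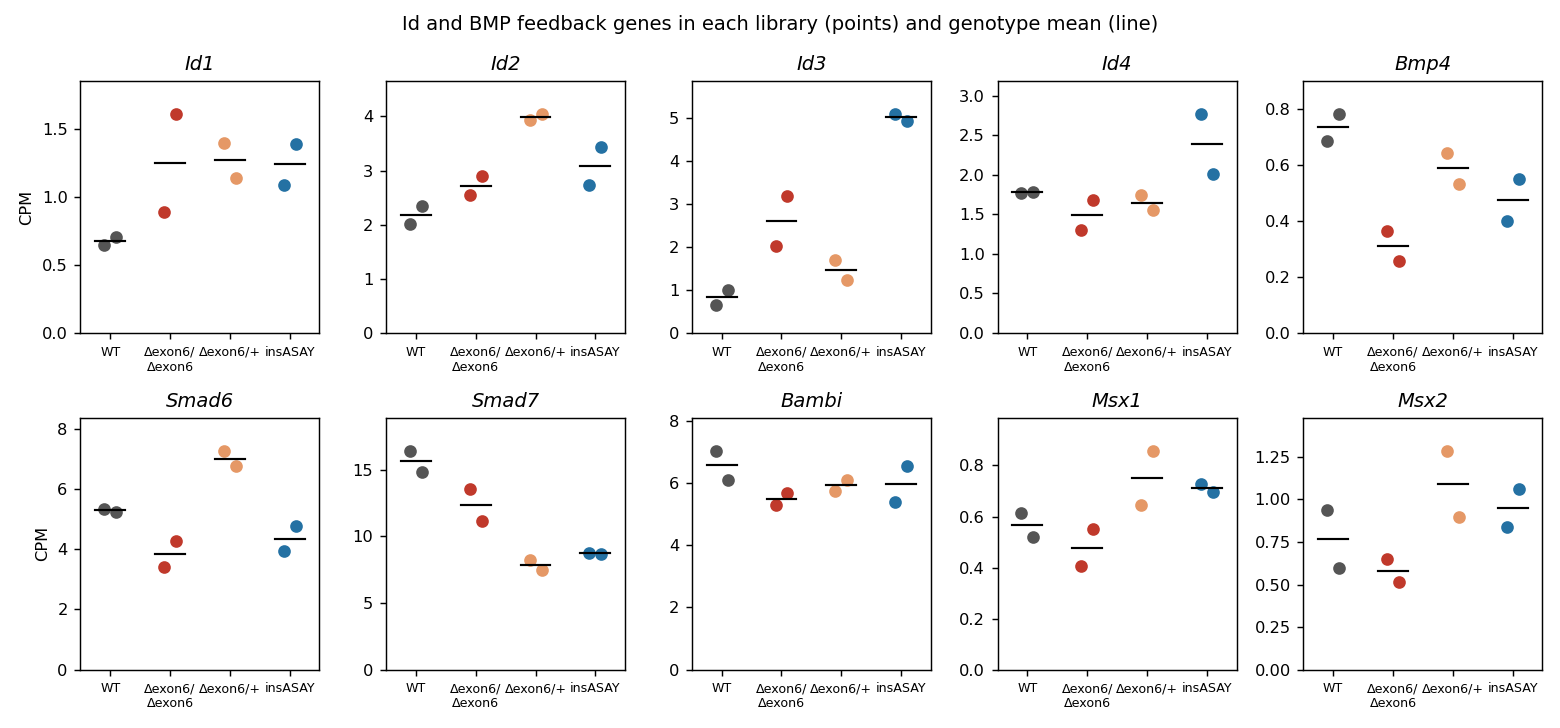
Level of the 10 genes in the 8 libraries, in CPM on axes that start at 0, with 1 point per library and a line at the mean of each genotype. Id3 stood at 4.94 and 5.10 CPM in the insASAY libraries and at no more than 3.19 CPM in any other, and Smad7 was highest in the WT libraries.

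Id3, the gene of the Id family that moved most, had 18 and 27 reads in the WT libraries, 50 and 87 in Δexon6/Δexon6, 45 and 30 in Δexon6/+ and 140 and 135 in insASAY libraries. The mean level was 0.827 ± 0.251 CPM (SD, n = 2) in WT, 2.61 ± 0.825 in Δexon6/Δexon6, 1.47 ± 0.338 in Δexon6/+ and 5.02 ± 0.114 in insASAY cells. The genotypes did not overlap in CPM, and the order WT, Δexon6/+, Δexon6/Δexon6 and insASAY held in every library. The log2 fold change against WT was 1.66 ± 0.29 in Δexon6/Δexon6 cells and 2.60 ± 0.27 in insASAY cells, a 6.06-fold higher level. In Δexon6/+ cells it was 0.83 (95% interval 0.12 to 1.54) and not called, but it was called in 4 of 15 alternatives (no filter, only the 2 genotypes, and without either Δexon6/Δexon6 library), and ran from 0.55 to 1.17 as single libraries were left out. Leaving out each of the 8 libraries in turn kept the other calls, with values of 1.29 to 2.01 and 2.31 to 2.94. In bulk RNA, more cells with Id3 transcripts and more transcripts per cell cannot be told apart.

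Between mutant genotypes, Id3 was the 1 gene of the 10 called higher in insASAY than in Δexon6/Δexon6 cells (0.93 ± 0.22, with 2.79% of all tested genes called higher), and none of the 10 was called lower (2.38% of all). Without the first or the second insASAY library this call was lost, and the values over the 8 left-out libraries ran from 0.64 to 1.31. The 2 clones of Δexon6/Δexon6 differed for Id3, at 2.02 and 3.19 CPM, but both stood below both insASAY libraries.

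Id1, whose protein like that of Id3 is a broad partner of E proteins, was the lowest of the 4 Id genes in reads. It had 18 and 19 reads in WT, 22 and 44 in Δexon6/Δexon6, 37 and 28 in Δexon6/+ and 30 and 38 in insASAY libraries. All 6 mutant libraries stood above both WT libraries in CPM, and the mutant genotypes overlapped each other. The 3 differences from WT were 0.90 (95% interval 0.17 to 1.62) in Δexon6/Δexon6, 0.91 (0.18 to 1.63) in Δexon6/+ and 0.87 ± 0.33 (0.15 to 1.59) in insASAY cells, on the log2 scale. Of these, only the last was called, and it lost the call under DESeq2 and without any 1 of 6 libraries (both WT, both insASAY and both Δexon6/+), at 0.68 to 1.03. The differences between mutant genotypes ran from −0.04 to 0.01, with intervals that together reached from −0.69 to 0.66. The difference in Δexon6/Δexon6 cells ran from 0.39 (without the second Δexon6/Δexon6 library) to 1.25 (without the first) as single libraries were left out and was called in 3 of 15 alternatives, and that in Δexon6/+ cells ran from 0.75 to 1.04 and was called in 5. For Id1 no mutant genotype stood apart from the others.

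Id2, another E protein partner, had the most reads of the 4 Id genes in WT. The counts were 56 and 63 in WT, 63 and 79 in Δexon6/Δexon6, 104 and 99 in Δexon6/+ and 75 and 94 in insASAY libraries. Both Δexon6/+ libraries stood above all 6 others, at 3.99 ± 0.0768 CPM (SD, n = 2) against 2.18 ± 0.229 in WT. The log2 fold change against WT was 0.87 ± 0.19 in Δexon6/+ cells and stayed called in all 15 alternatives that use the same thresholds. In Δexon6/Δexon6 cells it was 0.32 (95% interval −0.10 to 0.75). In insASAY cells it was 0.4996 (0.09 to 0.91), just inside the limit of 0.5, so that 4 of 15 alternatives called it and the others did not.

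Id4, which is best known from neural and germline cells, was called in none of the 6 comparisons. It had 49 and 48 reads in WT, 32 and 46 in Δexon6/Δexon6, 46 and 38 in Δexon6/+ and 76 and 55 in insASAY libraries. The 2 insASAY libraries stood above the other 6, with a log2 fold change of 0.43 (95% interval −0.06 to 0.91) against WT. It was −0.25 (−0.77 to 0.28) in Δexon6/Δexon6 and −0.11 (−0.63 to 0.41) in Δexon6/+ cells.

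**Figure D2:**
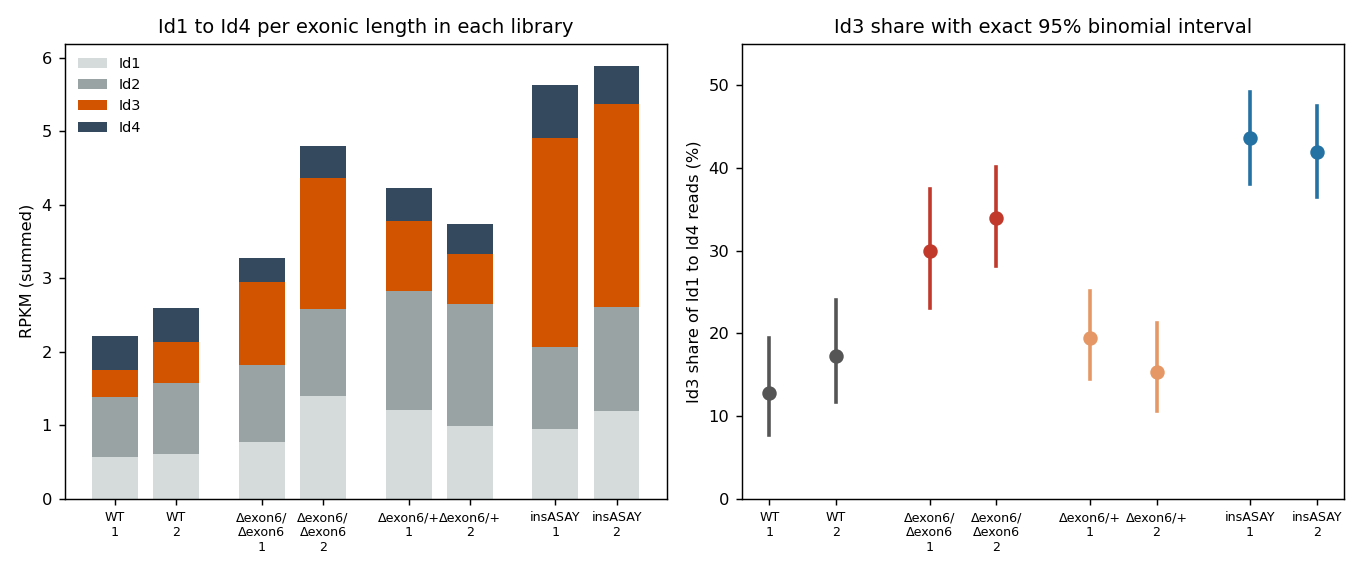
Left, the RPKM (CPM divided by exonic length in kilobases) of Id1, Id2, Id3 and Id4 stacked for each library. Right, the share of the 4 genes' reads that were Id3 reads, in percent, with exact 95% binomial intervals, from 12.8% and 17.2% in WT to 43.6% and 41.9% in insASAY libraries.

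The share of Id3 among the Id reads differed most between WT and insASAY libraries. It was 12.8% (exact binomial 95% interval 7.75 to 19.4) and 17.2% (11.7 to 24.0) in the WT libraries, and 19.4% (14.5 to 25.1) and 15.4% (10.6 to 21.2) in Δexon6/+. It was 29.9% (23.1 to 37.5) and 34.0% (28.2 to 40.1) in Δexon6/Δexon6 and 43.6% (38.1 to 49.2) and 41.9% (36.5 to 47.5) in insASAY libraries. These intervals cover counting error only. The intervals of WT and Δexon6/+ libraries overlapped, and those of all 4 lay below those of both insASAY libraries, while the interval of the second Δexon6/Δexon6 library overlapped those of both insASAY libraries and that of the first overlapped 1 of them. The summed level of the 4 Id genes was 5.09 and 5.84 CPM in WT, 6.76 and 9.39 in Δexon6/Δexon6, 8.78 and 7.97 in Δexon6/+ and 11.7 and 11.8 in insASAY libraries. Both WT sums lay below those of all mutant libraries, and those of the Δexon6/Δexon6 and Δexon6/+ libraries overlapped.

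Per exonic length, the order of the 10 genes differed between genotypes. In WT cells Smad7 was highest at 3.46 ± 0.246 RPKM (SD, n = 2), followed by Smad6 (1.65 ± 0.0208), Bambi (1.30 ± 0.13) and Id2 (0.895 ± 0.0938), each step larger than the spread of the libraries. Id1 at 0.585 RPKM, Id3 at 0.462 and Id4 at 0.462 overlapped their neighbours, and Bmp4 (0.326), Msx2 (0.234) and Msx1 (0.183) were lowest. In insASAY cells Id3 led at 2.80 ± 0.0637 RPKM, above Smad7 at 1.93 ± 0.00564, and Smad6, Id2, Bambi and Id1 followed with each overlapping the next. In Δexon6/+ cells Smad6 led at 2.19 ± 0.116 RPKM, and Smad7 (1.74) and Id2 (1.64) overlapped. In Δexon6/Δexon6 cells Smad7 led at 2.73 ± 0.378 RPKM, and Id3, Smad6, Id2, Bambi and Id1 lay between 1.46 and 1.08, each overlapping the next.

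Bmp4 (chromosome 14, 46383520 to 46390669, minus strand, GRCm38), the ligand gene that gives the feedback its name, was the lowest of the 10 in reads. It had 19 and 21 reads in WT, 9 and 7 in Δexon6/Δexon6, 17 and 13 in Δexon6/+ and 11 and 15 in insASAY libraries. Both WT libraries were above all 6 mutant libraries. The log2 fold change against WT was −1.24 ± 0.38 in Δexon6/Δexon6 cells and called, −0.62 (95% interval −1.37 to 0.12) in insASAY cells and −0.31 (−1.04 to 0.41) in Δexon6/+ cells. The call rested on 16 reads in the 2 mutant libraries together and was lost without the first WT, the second WT or the second Δexon6/Δexon6 library, with values from −1.49 to −0.999. DESeq2 gave this gene no adjusted p there, and a filter of 10 counts in every library removed it.

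Smad7, an inhibitory Smad that blocks the receptors of both BMP and TGF-β ligands, had the most reads of the 10. The libraries held 455 and 399 reads in WT, 335 and 304 in Δexon6/Δexon6, 218 and 182 in Δexon6/+ and 240 and 238 in insASAY cells. All 6 mutant libraries lay below both WT libraries, and the Δexon6/Δexon6 libraries lay between WT and the other mutant genotypes. The mean level was 15.6 ± 1.11 CPM (SD, n = 2) in WT, 12.4 ± 1.71 in Δexon6/Δexon6, 7.85 ± 0.576 in Δexon6/+ and 8.73 ± 0.0255 in insASAY cells. The log2 fold change against WT was −0.99 ± 0.12 in Δexon6/+ and −0.84 ± 0.12 in insASAY cells, and both calls held in all 15 alternatives. In Δexon6/Δexon6 cells it was −0.34 (95% interval −0.59 to −0.10), inside the limit of 0.5. Leaving out single libraries gave values from −1.07 to −0.92 and from −0.91 to −0.77.

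Smad6 (chromosome 9, 63953076 to 64022059, minus strand, GRCm38), the inhibitory Smad that acts mainly on BMP receptors, ran in another order. It had 148 and 141 reads in WT, 84 and 116 in Δexon6/Δexon6, 192 and 165 in Δexon6/+ and 108 and 130 in insASAY libraries. Both Δexon6/+ libraries stood above the other 6, and those of the homozygous genotypes below both WT libraries. None of the 3 differences from WT was called, at −0.46 (95% interval −0.81 to −0.12), 0.40 (0.09 to 0.72) and −0.28 (−0.62 to 0.05) in Δexon6/Δexon6, Δexon6/+ and insASAY cells. Without the second Δexon6/Δexon6 library the first of these was called, at −0.64, and it ran from −0.64 to −0.31 as single libraries were left out.

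Smad6 and Smad7 thus differed in which genotype was highest and lowest. Between Δexon6/+ and Δexon6/Δexon6 cells, the log2 fold change was 0.87 ± 0.16 for Smad6 and −0.65 ± 0.12 for Smad7. In insASAY against Δexon6/+ cells, it was −0.69 ± 0.15 for Smad6 and 0.15 (95% interval −0.12 to 0.43) for Smad7. The Smad6 and Smad7 levels together were 21.8 and 20.1 CPM in WT, 17.0 and 15.4 in Δexon6/Δexon6, 15.5 and 14.2 in Δexon6/+ and 12.7 and 13.5 in insASAY libraries.

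Bambi, the gene of a receptor-like membrane protein that lacks the kinase domain and blocks receptor pairing, was the steadiest of the 10, with no difference over 0.26 in size on the log2 scale in the 6 comparisons. It had 195 and 164 reads in WT, 131 and 155 in Δexon6/Δexon6, 152 and 149 in Δexon6/+ and 148 and 179 in insASAY libraries. The insASAY and WT libraries overlapped. No comparison called it, and the 3 intervals against WT together ran from −0.57 to 0.17 on the log2 scale, so a rise past 0.17 lies outside them.

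The homeobox genes Msx1 and Msx2, BMP targets in limb, tooth and neural crest, were near the floor of the assay. Msx1 had 10 to 21 reads in every library and was called in no comparison. Its differences from WT were −0.24 (95% interval −1.02 to 0.55), 0.39 (−0.33 to 1.12) and 0.32 (−0.39 to 1.04). Msx2 had 26 and 16 reads in WT, 16 and 14 in Δexon6/Δexon6, 34 and 22 in Δexon6/+ and 23 and 29 in insASAY libraries. The WT libraries for Msx2 overlapped those of every mutant genotype, and no difference from WT was called, at −0.41 (95% interval −1.20 to 0.38), 0.51 (−0.19 to 1.21) and 0.30 (−0.41 to 1.01) in Δexon6/Δexon6, Δexon6/+ and insASAY cells.

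**Figure D3:**
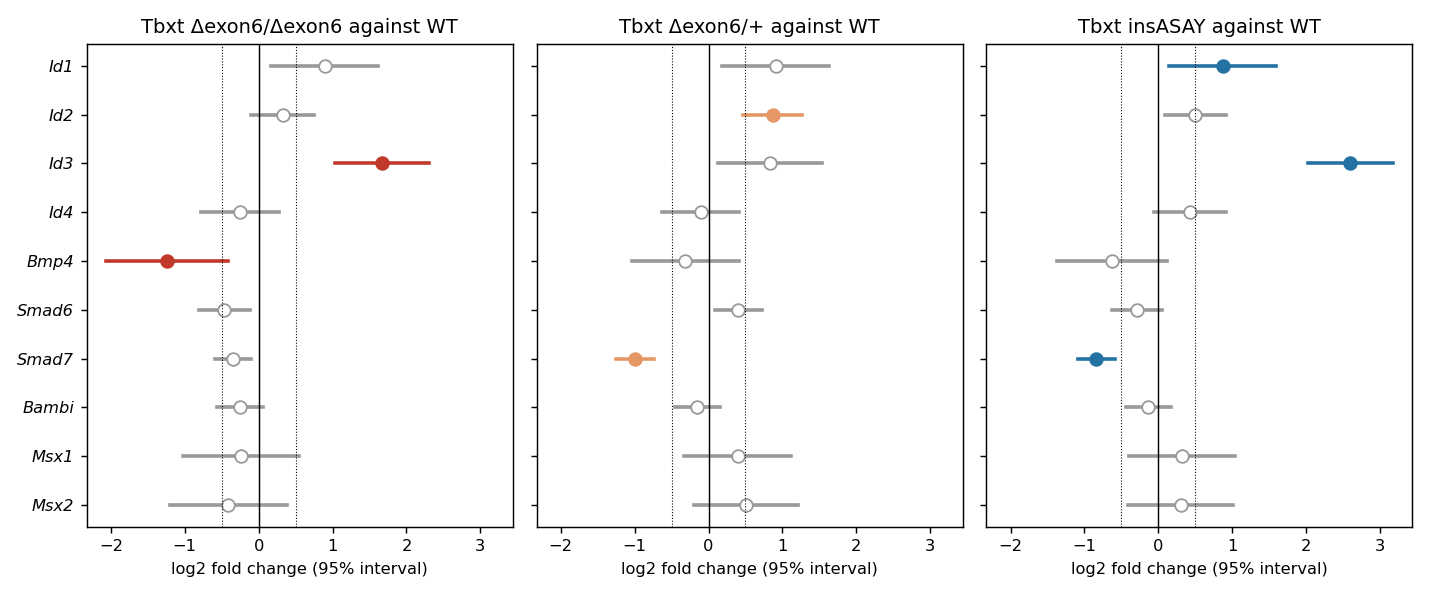
Log2 fold change of the 10 genes in each mutant genotype against WT, with 95% intervals from the edgeR fit of all 8 libraries. Filled points were called and open points were not, dotted lines mark 0.5 and −0.5, and the 3 panels share the WT libraries. Id3 in insASAY cells lies farthest from 0, at 2.60.

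In the other comparisons between mutant genotypes, Id3 and Smad6 were called between Δexon6/+ and each homozygous genotype, while Id2, Smad7 and Msx2 were called between Δexon6/+ and Δexon6/Δexon6 but not between Δexon6/+ and insASAY. In Δexon6/+ against Δexon6/Δexon6 cells, Id2 (0.55 ± 0.18), Smad6 and Msx2 (0.92 ± 0.35) were called higher, where 11.2% of all tested genes were, and Id3 (−0.83 ± 0.27) and Smad7 were called lower, where 11.0% of all were. In insASAY against Δexon6/+ cells, Id3 (1.77 ± 0.24) was called higher and Smad6 lower, with 14.6% and 13.0% of all tested genes called in those directions. The Msx2 call was lost under 7 of 15 alternatives and the Id2 call under 4, while the Smad6 and Smad7 calls held in all of them. The Id3 difference between the deletion genotypes lost its call without the second Δexon6/Δexon6 or the second Δexon6/+ library, at values from −1.12 to −0.46.

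The other genes of the BMP pathway were taken from 7 lists of 87 genes, of which 73 were tested. Against WT, 3 were called higher and 7 lower in Δexon6/Δexon6, 9 higher and 6 lower in Δexon6/+ and 4 higher and 12 lower in insASAY cells. Their median log2 fold changes were −0.05, −0.04 and −0.15. The shares to read these against are those given above for all tested genes. Adjusted p-values below are from edgeR's quasi-likelihood test with Benjamini-Hochberg adjustment over all tested genes.

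Among 10 tested ligand genes other than Bmp4, Bmp2 was called in all 3 comparisons, but not in 1 direction. Bmp2, like Bmp4 a strong activator of Smad1 and Smad5, was at 2.53 ± 0.36 CPM (SD, n = 2) in WT, 3.58 ± 0.0221 in Δexon6/Δexon6, 1.55 ± 0.0562 in Δexon6/+ and 1.24 ± 0.159 in insASAY cells. The difference was 0.50 ± 0.18 in Δexon6/Δexon6 (edgeR adjusted p = 0.0458), and DESeq2, a filter of 10 counts in every library, a fit of only the 2 genotypes, the replicate block and leaving out any 1 of the 8 libraries each ended that call, with values from 0.36 to 0.66. Bmp2 fell by 0.70 ± 0.21 in Δexon6/+ (adjusted p = 0.0201, lost under DESeq2 and without the first WT or either Δexon6/+ library, at −0.84 to −0.55) and by 1.02 ± 0.21 in insASAY cells (adjusted p = 0.00159, held in all 15 alternatives). In insASAY cells Bmp6 (−0.56 ± 0.13, adjusted p = 0.00329) and Bmp8b (−0.53 ± 0.12, adjusted p = 0.00367) were also lower. The Bmp6 call was lost without the second WT library, at −0.43, and that of Bmp8b without the first WT or first insASAY library, at −0.47 at the weakest. Gdf6 was called higher in Δexon6/+ cells, a gene outside the naming rule and named after its values were seen.

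Of 12 receptor and co-receptor genes, Rgma, the gene of a membrane-anchored BMP co-receptor, rose by 1.06 ± 0.10 in Δexon6/+ cells (edgeR adjusted p = 5.32e-06), from 13.4 ± 0.721 to 27.8 ± 1.47 CPM. The type II receptor gene Bmpr2 fell by 0.54 ± 0.06 there (adjusted p = 2.49e-05), to 0.49 and without a call when the first Δexon6/+ library was left out. Its differences were −0.33 ± 0.06 in insASAY and −0.06 ± 0.06 in Δexon6/Δexon6 cells, without a call. Tgfbr3, which encodes betaglycan, a co-receptor of TGF-β and BMP ligands, fell by 0.73 ± 0.14 in Δexon6/Δexon6 and by 0.67 ± 0.14 in insASAY cells (adjusted p = 0.00207 and 0.00175). Acvrl1, a type I receptor gene of endothelium, fell by 0.98 ± 0.24 in insASAY cells (adjusted p = 0.00502), a call lost without the first insASAY library, at −0.67. The remaining receptor genes did not pass in any of the 3 comparisons.

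Of the 4 Smads that relay the signal, 1 was called against WT, in 1 genotype. Smad4, the shared partner, was at 110 ± 3.86 CPM (SD, n = 2) in WT and differed from WT by −0.13 to 0.02 on the log2 scale in the mutants. Smad1 stood 0.22 to 0.28 above WT in the 3 mutant genotypes without a call. Smad5 was 0.56 ± 0.07 higher in Δexon6/+ cells (edgeR adjusted p = 3.43e-05), at 0.49 and uncalled without the second WT library, and 0.16 and 0.29 above WT in Δexon6/Δexon6 and insASAY cells without a call. Smad9 was at 0.682 ± 0.403 CPM in WT and was not called against WT. It was called higher in Δexon6/+ than in Δexon6/Δexon6 cells (1.32 ± 0.50), on 23 and 19 reads against 12 and 5.

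Among 12 tested antagonist and modulator genes, Fst, whose product follistatin binds activins and some BMPs, rose with the largest change in the list. It was at 4.90 ± 0.236 CPM (SD, n = 2) in WT, 9.82 ± 1.69 in Δexon6/Δexon6, 6.02 ± 0.27 in Δexon6/+ and 16.7 ± 1.5 in insASAY cells. Fst rose by 1.00 ± 0.14 in Δexon6/Δexon6 (edgeR adjusted p = 0.000313) and by 1.77 ± 0.14 in insASAY cells (adjusted p = 2.10e-06), and was 0.30 ± 0.15 higher without a call in Δexon6/+ cells. Its genotype means ran in the same order as those of Id3, which was noticed after the values were seen. Htra1, a secreted serine protease gene, fell by 0.97 ± 0.14 and 0.99 ± 0.14 in the same homozygous genotypes (adjusted p = 0.000295 and 9.02e-05). Fstl3, a follistatin relative, fell by 0.87 ± 0.15 in Δexon6/+ (adjusted p = 0.000638) and by 0.51 ± 0.14 in insASAY cells (adjusted p = 0.00901, lost under DESeq2 and without the first WT or first insASAY library, at −0.49 at the weakest). Nbl1, the gene of a secreted antagonist of the DAN family, rose by 0.57 ± 0.13 in Δexon6/Δexon6 cells (adjusted p = 0.00417), at 0.49 and uncalled without the second WT library. Nog in insASAY, Tll1 in Δexon6/Δexon6 (both lower) and Chrdl1 in Δexon6/+ cells (higher) complete the calls and were named after their values were seen.

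Of 12 intracellular regulators of Smad signalling, such as the ubiquitin ligases Smurf1 and Smurf2 and the corepressors Ski and Skil, 1 was called. Zeb2, a zinc-finger repressor gene that binds Smads, rose by 0.95 ± 0.11 in Δexon6/+ cells (edgeR adjusted p = 4.03e-05), from 8.89 ± 0.999 to 17.1 ± 0.435 CPM. The E protein genes, whose products Id proteins bind, were not called in any comparison with WT. Tcf3 was at 220.3 ± 6.22 CPM, Tcf12 at 131.2 ± 0.785 and Tcf4 at 45.4 ± 0.908 in WT. The differences of these 3 genes from WT ran from −0.11 to 0.42, and the 2 largest were 0.42 ± 0.05 for Tcf12 (adjusted p = 2.51e-05) and 0.33 ± 0.06 for Tcf4 (adjusted p = 0.000886), both in Δexon6/+ cells and both below the limit of 0.5.

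Of 20 other BMP target genes tested, none was called higher and 4 lower in Δexon6/Δexon6 cells (6.12% and 6.59% of all tested genes). In Δexon6/+ cells 4 were called higher and 3 lower (6.60% and 6.89% of all). In insASAY cells 3 were called higher and 4 lower (11.5% and 9.85% of all). The medians were −0.31, 0.04 and −0.28 in that order. Tbx3, a T-box gene of naive ES cells, fell by 1.60 ± 0.25 in Δexon6/Δexon6 (edgeR adjusted p = 0.000490) and by 1.96 ± 0.25 in insASAY cells (adjusted p = 5.80e-05). The 2 Δexon6/Δexon6 clones differed for it, at 20.02 ± 12.3 CPM, and the difference ran from −2.41 to −1.07 as single libraries were left out. Gata3, a trophoblast and epithelial regulator, fell by 1.32 ± 0.16 in insASAY cells (adjusted p = 3.30e-05). In Δexon6/+ cells Dusp9, the gene of an ERK phosphatase known as a BMP target in ES cells, fell by 0.83 ± 0.05 (adjusted p = 1.01e-07). Its differences from WT were −0.46 ± 0.05 in insASAY and −0.34 ± 0.05 in Δexon6/Δexon6 cells, inside the limit of 0.5 and not called. Zfp423, the gene of a zinc-finger partner of Smads, rose by 0.72 ± 0.08 in Δexon6/+ cells (adjusted p = 2.55e-05).

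**Figure D4:**
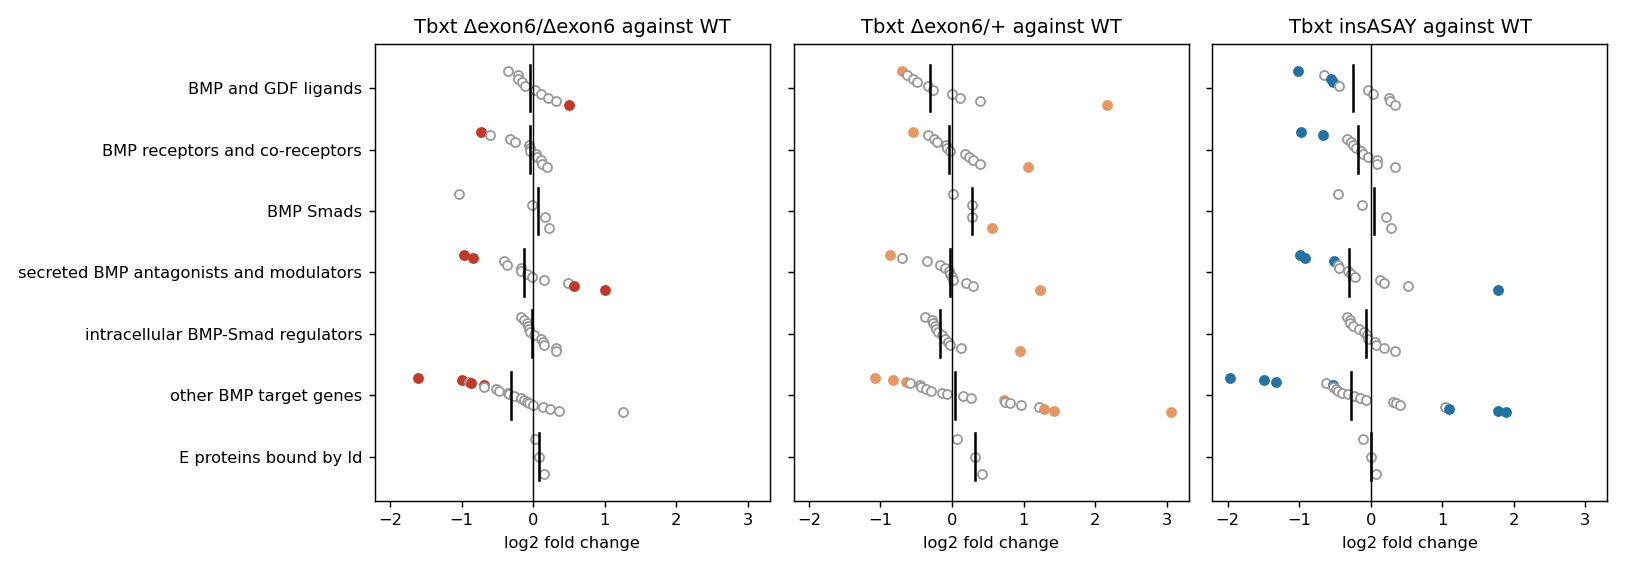
Log2 fold change against WT of the 73 tested genes of the 7 BMP pathway lists, with 1 point per gene, filled where called, and a line at the median of each list. The 3 panels share the WT libraries. The 4 BMP Smads and 3 E proteins hold 1 called gene between them, Smad5 in Δexon6/+ cells.

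Markers of cell states moved with the genotypes as well. Naive pluripotency genes were called lower for 7, 8 and 7 of 12 in Δexon6/Δexon6, Δexon6/+ and insASAY cells and none higher. Their summed levels were 420.5 to 439.5 CPM in WT and 229.2 to 293.4 in the mutants. Over all tested genes, 6.12%, 6.60% and 11.5% were called higher and 6.59%, 6.89% and 9.85% lower in that order. Of the 8 ES cell identity genes, 0, 2 and 0 were called higher and 3, 4 and 1 lower. Of 7 tested primitive streak and early mesoderm genes, 1, 2 and 1 were called higher and 1, 3 and 3 lower. Neural progenitor genes were called higher for 6 of 8 tested in Δexon6/+ cells and none lower. In Δexon6/Δexon6 cells 1 was called higher and 1 lower, and in insASAY cells none was called. The list summed to 148.6 and 149.3 CPM in WT and 193.2 and 241.7 in Δexon6/Δexon6 libraries. It summed to 186.1 and 192.7 in Δexon6/+ and 155.3 and 165.4 in insASAY libraries. Nes alone was at a mean of 160.5 CPM in Δexon6/Δexon6 and 91.87 in WT cells. Of 7 tested embryonic fibroblast genes, 6 were called lower in insASAY and 3 in Δexon6/Δexon6 cells, and none higher in either. In Δexon6/+ cells 1 was called lower and 2 higher. The list summed to 18.6 and 19.5 CPM in insASAY and 22.6 and 24.7 in Δexon6/Δexon6 libraries. It summed to 36.5 and 36.8 in Δexon6/+ and 32.5 and 36.3 in WT libraries. S100a4 was at 0 in every genotype. Trophoblast genes summed to 174.9 to 184.6 CPM in Δexon6/+ and 332.8 to 575.6 in the other genotypes. Keratin genes were the highest of the list, Krt8 at 184.4 CPM in WT, 253.6 in Δexon6/Δexon6 and 192.6 in insASAY, and Krt18 at 83.25 in Δexon6/+. Of 8 tested, 0, 1 and 1 were called higher and 3, 3 and 4 lower in Δexon6/Δexon6, Δexon6/+ and insASAY cells. Tpbpa was at 0 throughout, and Elf5 in each mutant genotype. Tbx3 is also in the naive list, and Gata3, Hand1, Tfap2c and Cdx2 are also in the trophoblast list. The part of these states in the values of the 10 genes was not tested.

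Over the 8 libraries, the expression patterns most like those of 3 Id genes belonged to genes outside the pathway lists. Among 12836 genes at 2 CPM or more, Id3 was closest to Zfp780b, Borcs8 and Raver1 (Pearson r = 0.994, 0.990 and 0.989 on log2 CPM), Id2 to Alg14, Tmem175 and Anks6 (0.990, 0.978 and 0.971), and Id1 to 1810058I24Rik, Slc35c1 and Bcl9 (0.985, 0.969 and 0.967). The 8 points are 4 genotypes with 2 libraries each and were picked as the closest of many, so these values are a description.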

How the data were processed

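The authors mapped the paired reads of 8 stranded poly(A) libraries with STAR 2.7.2a to the mouse genome build mm10 (GRCm38), and deposited whole-number counts of reads per gene, without normalization. Counts of the strand that the library kit reads were used, from 24618587 to 28445952 per library, and 4.11% to 4.78% of stranded reads fell on the other strand. The summary lines that STAR writes above the genes stood in 7 of 8 files and were not used. The study itself used DESeq2 1.40.2. Groups were taken from the labels.

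Here, counts were fitted in R 4.3.3 with edgeR 4.0.16 (TMM, filterByExpr with a minimum count of 10, quasi-likelihood F test, all 8 libraries, 1 coefficient per genotype, 6 comparisons) and Benjamini-Hochberg adjustment over 17049 genes. A call needed an adjusted p below 0.05 together with a log2 difference larger than 0.5 in either direction. Symbols, exonic lengths and coding windows came from GENCODE M21, and promoters from RefSeq. The fit was tested on simulated counts. Intervals and binomial limits cover counting error or library spread only, and depth limits genes under about 30 reads.

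The 10 genes and all lists were chosen with earlier results of these data known. Named genes were the 10, Tbxt, BMP Smads and E proteins, up to 4 called genes per other pathway list with the smallest adjusted p and a mean of at least 2 CPM, and 3 genes most alike each of Id1, Id2 and Id3. Alternatives were DESeq2 1.42.0, its size factors in edgeR, no filter, 10 counts in every library, unstranded counts, only the 2 genotypes compared, a replicate block, the TREAT test and leaving out each library. The 15 alternatives counted for single genes leave out TREAT. Those for calls between mutants, for Tbxt and for pathway genes were added after seeing the data. Isoforms were not analysed here.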

Additional observations from a re-analysis of the deposited data

How the results depend on the processing

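The count of called genes among the 10 was 2, 2 and 3 in Δexon6/Δexon6, Δexon6/+ and insASAY cells against WT, and 5, 1 and 2 in Δexon6/+ against Δexon6/Δexon6, insASAY against Δexon6/Δexon6 and insASAY against Δexon6/+. Brackets below give the calls over all tested genes under the same setting. For Δexon6/Δexon6 against WT it was 1 with DESeq2 (1554 of 14738) and 1 with TREAT (267 of 17049). For Δexon6/+ against WT it was 4 without a filter (2519 of 27566) and 1 with TREAT (775 of 17049). With only the 2 genotypes in the fit it was 4 (2527 of 16456). For insASAY against WT it was 2 with DESeq2 (2805 of 16790) and 2 with TREAT (1215 of 17049). It was 4 with DESeq2's size factors (3635 of 17049) and 4 with 10 counts in every library (3259 of 15033). With only the 2 genotypes it was 4 (3855 of 16671). Not every setting that moved a count is listed here. For Δexon6/+ against Δexon6/Δexon6 it was 3 with DESeq2 (2977 of 15764) and 1 with TREAT (1548 of 17049). For insASAY against Δexon6/Δexon6 it was 2 with DESeq2 (582 of 14224) and 2 with its size factors (885 of 17049). It was 3 without a filter (1108 of 27566) and 0 with TREAT (134 of 17049). TREAT left 1 for insASAY against Δexon6/+ (2192 of 17049). TREAT asks for a change reliably past 0.5, so that fewer calls follow from its construction, and for pathway genes it left 4 of 10, 7 of 15 and 5 of 16 against WT. The cause of the other moves was not tested.

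Leaving out each library in turn gave 1 to 3, 2 to 4 and 2 to 3 called genes of the 10 against WT, and 3 to 5, 0 to 3 and 2 to 3 between mutants in the order above. Pathway calls ran from 7 to 11, 11 to 15 and 10 to 17, with the 10 found without the first insASAY library. The number of calls over all tested genes also moved as libraries were left out. A genotype left with 1 library was assumed to vary like the others. The difference of Tbxt in Δexon6/+ cells ran from −0.14 to 0.44 and was the 1 single-gene value that changed sign. DESeq2's size factors moved the median of all genes by less than 0.1. Genes with under about 30 reads, such as Bmp4 and Msx1, and Id1, Id3 and Msx2 in WT, are limited by depth.

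The replicate numbers did not pair the libraries (correlations of replicate differences from −0.10 to 0.07). With the replicate number as a block, the called genes of the 10 numbered 2, 2, 3, 5, 1 and 2 and the pathway genes 9, 15 and 15 in the orders above.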
